A study of Mus musculus with 446 samples.

Results

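The 36 genes described here encode hydrolases of the lysosome and their cofactors, proteins of the lysosomal membrane, 3 subunits of the proton pump that acidifies it, the cathepsin inhibitor cystatin B and the transcription factor Tfeb. They were taken as a list of symbols and matched to Ensembl identifiers, and the rule holds no threshold on a measured value, though the list was drawn up with earlier results of these data known. All 36 were among the 47643 genes of the liver and muscle tables. The adipose table held 2728 complete genes, 17 of them on the list, and the other 19 were not analysed here in that tissue. Sorted by Ensembl identifier, these 17 all come before the other 19, so absence from that table does not tell a low level. The mice were males of the Diversity Outbred population, whose animals each inherit a different mosaic of several founder strains. One group received a diet with 60 kcal% fat over 14 weeks, and the other a control diet with 10 kcal% fat, and they had been housed from 6 weeks of age. Abdominal adipose tissue came from 75 high-fat and 73 control mice, and liver and muscle from 75 high-fat and 74 control mice each, with 1 library per mouse and tissue.

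Liver and muscle values are TPM, which correct for transcript length and are shares of a fixed total, and the adipose table was taken to hold a part of such values. They do not tell how many reads lie behind a value, so that no counting error can be given. Each library was divided by a scale factor computed within its tissue, and levels are given in scaled TPM. In high-fat mouse 80 the liver library held 16945 scaled TPM of the muscle gene Ckm and 117.8 of the hepatocyte gene Alb, and the muscle library 102.1 of Ckm and 42273 of Alb. Both went against their labels and were left out, which leaves 74 high-fat and 74 control mice in these tissues. In 6 further mice (4 high-fat and 2 control) the liver did not match the muscle of the same number over 150 genes that agree between these tissues, and 4 of them matched a mouse of the other diet best. Their labels were kept, and the results were repeated without them. Scale factors below 1/3 of the tissue median occurred in 18 adipose libraries (7 high-fat and 11 control), 26 liver libraries (12 and 14) and 11 muscle libraries (9 and 2), here called low-scale libraries. The summed level of 10 hepatocyte markers in liver had a median of 42219 scaled TPM in high-fat and 46582 in control mice, and that of 10 muscle fibre markers in muscle 109692 scaled TPM in high-fat and 125127 in control mice. Among the livers kept, Ckm reached 1448 scaled TPM (median 0.0432), and among the muscles kept Alb reached 3660 (median 2.92). The part of such libraries in the correlations was not tested.

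Lysosomes receive worn cell parts by autophagy and outside material by endocytosis, and acid hydrolases break them down to amino acids, sugars, lipids and nucleotides. Many hydrolases carry a mannose 6-phosphate tag by which they are sorted from the Golgi. TFEB is known to raise the expression of many of these genes through a promoter motif, the CLEAR element, whose centre is the E-box CACGTG. Macrophages, which engulf dying cells and lipid, are rich in lysosomes, and they are known to accumulate in the adipose tissue of obese mice.

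RefSeq promoter windows (GRCm38.p6, 250 bases before to 50 after an annotated start) were matched for 31 of the 36 genes, with 40 windows in all, and not for Ctsb, Atp6v1b2, Atp6v0d2, Asah1 and Cstb. The palindrome CACGTG, which reads the same on both strands, was found in windows of 7 genes (Ctsa, Ctsd, Mcoln1, Lamp1, Glb1, Gaa and Lgmn). It was in 17.5% of the 40 windows, against 7.15% of all 32851 windows of this length. The longer palindrome TCACGTGA, which contains it, was in windows of Ctsa, Ctsd and Mcoln1, or 7.5% of the 40 windows, against 0.974% of all windows. The 250 bases before the start are shown for these 3 genes because they carry the longer motif, and for Gm2a because it had the largest diet difference in liver and neither motif. Each sequence is written 5′ to 3′ on its gene's strand, and capitals mark TCACGTGA. The core CACGTG begins 12 bases before the start in the Ctsa window shown, 98 in Ctsd and 45 in Mcoln1.
Ctsa (chr2:164833523-164833772, plus strand): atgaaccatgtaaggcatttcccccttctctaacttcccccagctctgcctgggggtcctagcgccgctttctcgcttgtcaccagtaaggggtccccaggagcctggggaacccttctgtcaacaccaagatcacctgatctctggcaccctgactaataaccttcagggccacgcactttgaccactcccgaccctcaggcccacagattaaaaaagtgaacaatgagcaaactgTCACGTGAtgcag
Ctsd (chr7:142387828-142388077, minus strand): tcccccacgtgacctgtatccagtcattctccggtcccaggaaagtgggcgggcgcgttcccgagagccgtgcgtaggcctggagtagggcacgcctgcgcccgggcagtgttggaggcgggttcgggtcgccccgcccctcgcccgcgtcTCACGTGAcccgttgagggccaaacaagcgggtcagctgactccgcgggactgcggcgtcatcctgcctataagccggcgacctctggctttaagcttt
Mcoln1 (chr8:3500269-3500518, plus strand): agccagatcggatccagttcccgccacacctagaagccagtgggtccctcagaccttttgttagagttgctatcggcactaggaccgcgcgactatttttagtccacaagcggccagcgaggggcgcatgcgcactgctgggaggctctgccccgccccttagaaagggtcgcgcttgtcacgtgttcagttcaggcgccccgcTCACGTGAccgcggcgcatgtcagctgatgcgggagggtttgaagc
Gm2a (chr11:55097735-55097984, plus strand): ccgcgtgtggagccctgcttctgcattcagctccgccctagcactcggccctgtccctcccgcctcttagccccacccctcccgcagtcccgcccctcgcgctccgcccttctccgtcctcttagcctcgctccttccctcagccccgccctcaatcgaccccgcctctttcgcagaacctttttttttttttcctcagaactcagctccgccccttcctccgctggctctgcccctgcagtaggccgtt

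In adipose tissue most of the measured lysosomal genes were higher in high-fat mice. All 17 passed the filter on low values. With limma on log2(scaled TPM + 1), at an adjusted p under 0.05 over all genes tested, 13 rose, 1 fell (Acp5) and 3 did not pass (Gm2a, Neu1 and Mcoln1). Of the 2223 genes tested 23.1% rose and 22% fell, so that 45.1% were called in all, 513 higher and 489 lower. Without scaling, on the values as deposited, 300 genes were higher and 17 lower around a median of all genes of 0.21, and the members called were 11 higher and 0 lower. With scaling, the median difference (high-fat minus control, log2) was 0.50 over the 17 genes and -0.01 over all genes tested.

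Among the proteases and their partners, all 5 measured genes rose. Cstb had a lowest, median and highest level of 92.7, 247 and 729.6 scaled TPM in high-fat mice, against 74.3, 119.3 and 626 in control mice. Cstb encodes cystatin B, an inhibitor of cysteine cathepsins, and had the largest difference of the 17, 0.93 ± 0.11 (log2, SE; limma, adjusted p = 9.43e-13), with 71 of 75 high-fat mice above the control median. Ctsa had a lowest, median and highest level of 91.3, 169 and 583 scaled TPM in high-fat mice, against 69.4, 116.2 and 352 in control mice. Cathepsin A, a carboxypeptidase that also protects beta-galactosidase and neuraminidase, differed by 0.61 ± 0.09 (limma, adjusted p = 2.5e-09), and the groups overlapped. Ctsz, a cysteine carboxypeptidase, had medians of 255 scaled TPM in high-fat and 164 in control mice, a difference of 0.63 ± 0.10. Scpep1, a serine carboxypeptidase, had medians of 54.3 scaled TPM in high-fat and 40.1 in control mice, a difference of 0.48 ± 0.07. The aspartic protease Ctsd was the second most abundant of the 17 in high-fat mice and differed less. Its medians were 1333 scaled TPM in high-fat and 1216 in control mice (0.29 ± 0.10, limma adjusted p = 0.0118), and 46 of 75 high-fat mice lay above the control median.

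Of the lipid-handling genes, Psap and Pld3 rose. Psap had a lowest, median and highest level of 746, 1625 and 5096 scaled TPM in high-fat mice, against 565, 1081 and 3020.4 in control mice. Psap encodes prosaposin, the precursor of the saposins that present sphingolipids to their hydrolases, and differed by 0.64 ± 0.09 (limma, adjusted p = 1.08e-09). Pld3 had a lowest, median and highest level of 26.1, 78.6 and 320.1 scaled TPM in high-fat mice, against 21.2, 35.6 and 155.3 in control mice. Pld3, a lysosomal exonuclease of the phospholipase D family, differed by 0.91 ± 0.11 (limma, adjusted p = 4.28e-11), with 71 of 75 high-fat mice above the control median. Gm2a encodes the GM2 activator, a lipid-binding cofactor of hexosaminidase A, and had medians of 61.1 scaled TPM in high-fat and 58.3 in control mice (0.08 ± 0.05, limma adjusted p = 0.246).

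Of the glycan-degrading genes, Man2b1 (lysosomal alpha-mannosidase) rose, with medians of 83.2 scaled TPM in high-fat and 58.1 in control mice (0.50 ± 0.08). Neu1 (neuraminidase) had medians of 26.7 scaled TPM in high-fat and 24.2 in control mice (0.11 ± 0.05, limma adjusted p = 0.0849). Dnase2a, which digests DNA from engulfed cells, rose, with medians of 29.1 scaled TPM in high-fat and 18 in control mice (0.73 ± 0.10). The acid phosphatases Acp2 and Acp5 went opposite ways. Acp2, the lysosomal acid phosphatase, had medians of 38 scaled TPM in high-fat and 34.3 in control mice (0.19 ± 0.04, limma adjusted p = 1.74e-05). Acp5 had a lowest, median and highest level of 47.4, 181 and 401 scaled TPM in high-fat mice, against 52.9, 212 and 605 in control mice. Acp5, the tartrate-resistant acid phosphatase known from osteoclasts and macrophages, differed by -0.29 ± 0.11 (limma, adjusted p = 0.0299), with 25 of 75 high-fat mice above the control median. On the values as deposited its difference was -0.04 (limma, adjusted p = 0.863).

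Of the membrane and pump genes, 3 of 4 rose. Tcirg1 had a lowest, median and highest level of 39, 71.3 and 396 scaled TPM in high-fat mice, against 21.3, 40.4 and 231 in control mice. Tcirg1, the a3 subunit of the proton pump that is prominent in osteoclasts, differed by 0.92 ± 0.12 (limma, adjusted p = 8.15e-11), and 73 of 75 high-fat mice lay above the control median. Atp6v1b2, the B2 subunit of the pump, had medians of 110.1 scaled TPM in high-fat and 78.1 in control mice (0.50 ± 0.08). The membrane glycoprotein Lamp2 had medians of 179.6 scaled TPM in high-fat and 173 in control mice (0.10 ± 0.04, limma adjusted p = 0.028), and missed the threshold without the low-scale libraries (adjusted p = 0.0603). Mcoln1, the calcium channel TRPML1, had medians of 37.4 scaled TPM in high-fat and 36.6 in control mice (0.03 ± 0.03, limma adjusted p = 0.452). Of the genes whose promoters are shown, Ctsa and Ctsd thus rose in adipose tissue, and Mcoln1 and Gm2a did not pass.

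**Figure D1:**
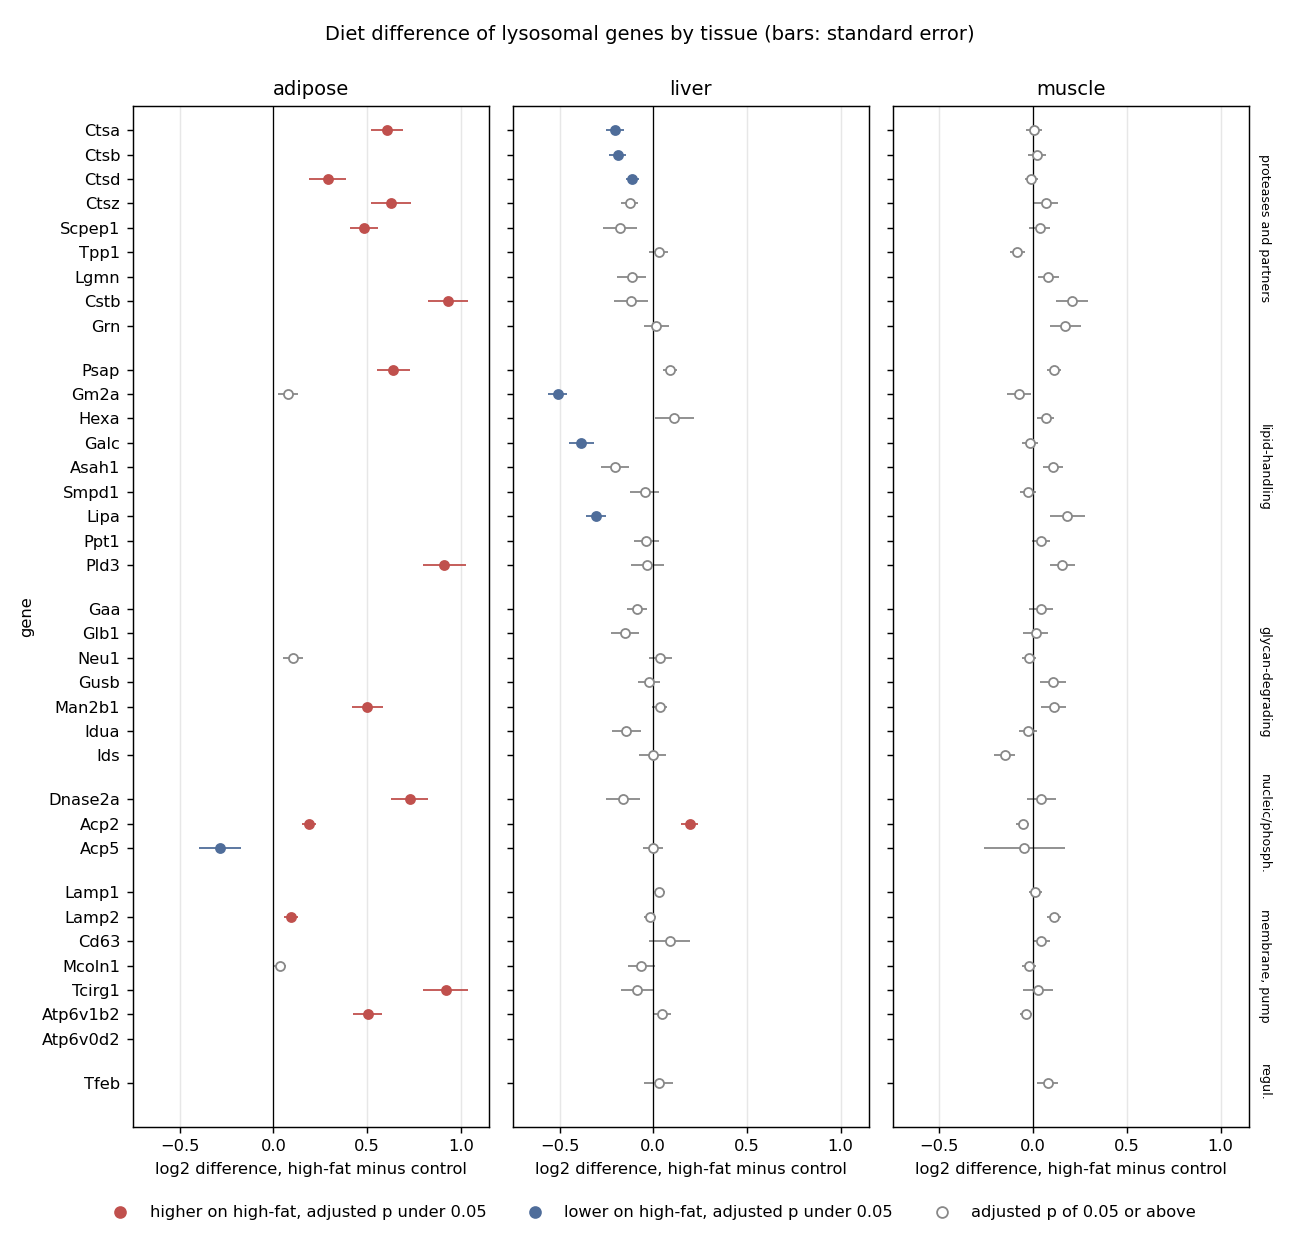
Difference between high-fat and control mice for each of the 36 genes in adipose tissue, liver and muscle, as log2 differences of scaled TPM + 1 with bars of 1 standard error, grouped by role. In adipose tissue 13 genes lie right of 0 and Acp5 left of it past the threshold (filled points), in liver 6 lie left and Acp2 right, and in muscle 0 pass (open points); genes without a point were not tested in that tissue.

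**Figure D2:**
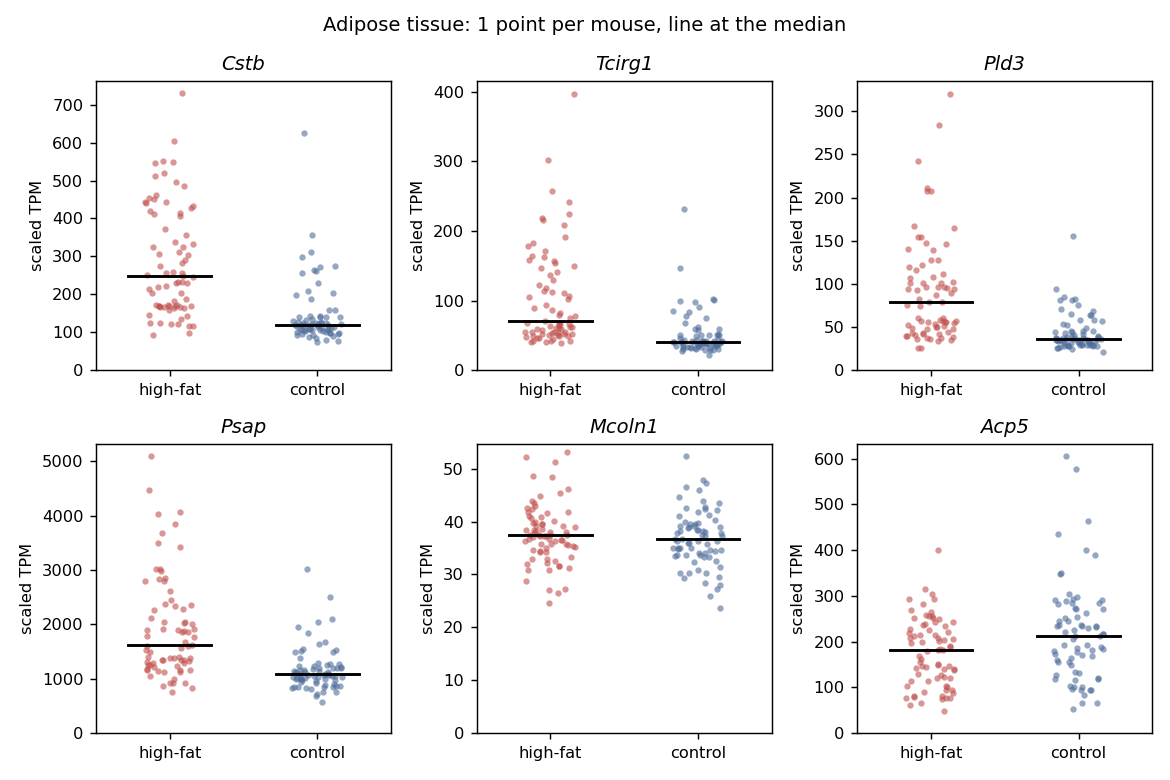
Scaled TPM of 6 genes in adipose tissue of 75 high-fat and 73 control mice, with 1 point per mouse and a line at the median. Cstb, Tcirg1, Pld3 and Psap are higher in high-fat mice, Mcoln1 has medians of 37.4 and 36.6, and Acp5 is lower in high-fat mice.

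Some of these genes also varied more between mice on the high-fat diet. In a test of the absolute deviations from the diet's median, 6 of the 17 varied more in high-fat adipose tissue, namely Pld3 (0.32), Tcirg1 (0.31), Ctsa (0.27), Scpep1 (0.26), Cstb (0.23), Psap (0.22), as differences of the mean absolute log2 deviation (limma, adjusted p between 9.76e-05 and 0.034). In this test 2.12% of the 1887 genes whose mean reached 5 scaled TPM varied more in high-fat mice and 0.318% less, or 2.44% in all. The coefficient of variation of Ctsa was 51.8% in high-fat and 33.4% in control mice, and that of Scpep1 41.7% and 26.3%. For Cstb it was 50.2% and 56.6%, the opposite order, and Cstb missed the threshold without the low-scale libraries (adjusted p = 0.0541). On the values as deposited 0 of the 6 passed. In liver and muscle 0 members passed this limma test, where 0.0273% of 7328 genes in liver (all higher) and 0.0352% of 8518 in muscle (all lower) did.

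Most of the 17 genes varied together across mice. The median correlation over all pairs of them was 0.69 in high-fat and 0.40 in control adipose tissue, against 0.00 over pairs of all tested genes in either diet, as a description of values that share libraries and scale factors. The exceptions were Acp5, whose median correlation with the other members was -0.15 in high-fat and 0.09 in control mice, and in control mice Neu1 (-0.01) and Mcoln1 (0.12), which reached 0.45 and 0.49 in high-fat mice. The 5 genes outside the list most like them, by the median correlation with the 17 genes, were Itgb2 (0.85), Cd68 (0.85), Spi1 (0.83), Cyth4 (0.83) and Myo9b (0.83). These correlations were taken over all adipose libraries, on deviations from the mean of each diet. Itgb2 (a leukocyte integrin), Cd68 (a lysosomal glycoprotein of macrophages) and Spi1 (the factor PU.1) are known as leukocyte or myeloid genes.

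Most of the tested macrophage markers were also higher in high-fat adipose tissue. Cd68 had medians of 144.4 scaled TPM in high-fat and 41.8 in control mice (1.56 ± 0.17, limma adjusted p = 4.4e-13), and Adgre1 (F4/80) 64.7 scaled TPM in high-fat and 27.9 in control mice (1.18 ± 0.15). Of 23 macrophage markers 6 were in the adipose table, 5 were tested and 4 rose (Cd68, Adgre1, Fcgr1 and Cd5l). Their summed level ran from 76.9 to 1072 scaled TPM in high-fat mice (median 287) and from 59.7 to 634 in control mice (median 118.6), and the Kupffer cell marker Clec4f had a median of 0 in both diets. Of 9 markers of lipid-associated macrophages 1 was in the table, Lpl, which adipocytes also express, and it fell (-0.39), and of 7 osteoclast markers Mmp9 alone was, and it fell (-0.35, limma adjusted p = 0.0417). All 4 adipocyte markers in the table fell (Retn, Slc2a4, Pparg and Lpl), with a median sum of 4146 scaled TPM in high-fat and 6213 in control mice. Of all genes tested in adipose tissue 23.1% rose and 22% fell. In bulk tissue fewer cells of a type and less RNA per cell cannot be told apart, and the part of macrophage content in the diet differences was not tested.

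Across mice of 1 diet, 16 of the 17 genes correlated positively with Cd68 in high-fat and 13 of 17 in control adipose tissue (permutation test with 1e+05 permutations, two-sided, adjusted over 174 relations in 3 tissues; the smallest p this can give is 1e-05). The least related member called had an absolute r of 0.48 in high-fat and 0.43 in control mice. At that r, 15% of all genes tested were positive and 7.74% negative in high-fat mice, and 10.4% and 5.9% in control mice. In liver and muscle members passed at a smaller r, so such shares are not comparable between tissues. The share of all genes that would pass the permutation test itself was not computed. Past the threshold 0 members were negative. Psap had r = 0.96 in high-fat and 0.86 in control mice (rho = 0.97 and 0.70, r = 0.96 and 0.80 without the 2 farthest mice, permutation adjusted p = 3.87e-05 and 3.87e-05). Tcirg1 had r = 0.95 in high-fat and 0.92 in control mice (rho = 0.96 and 0.78, r = 0.95 and 0.89 without the 2 farthest mice, permutation adjusted p = 3.87e-05 and 3.87e-05). Both were thus closely tied to Cd68 in either diet. Cd68 is itself a lysosomal glycoprotein, and the parts of macrophage content and lysosome content in these relations were not tested. Mcoln1 had r = 0.51 in high-fat and 0.06 in control mice (rho = 0.46 and -0.04, r = 0.44 and -0.04 without the 2 farthest mice, permutation adjusted p = 3.87e-05 and 0.658). Acp5 stood apart, with r = -0.18 in high-fat and -0.02 in control mice (rho = -0.20 and -0.05, r = -0.15 and -0.03 without the 2 farthest mice, permutation adjusted p = 0.171 and 0.891). On the values as deposited, where a library's scale enters both genes, r for Acp5 was 0.39 and 0.61.

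**Figure D3:**
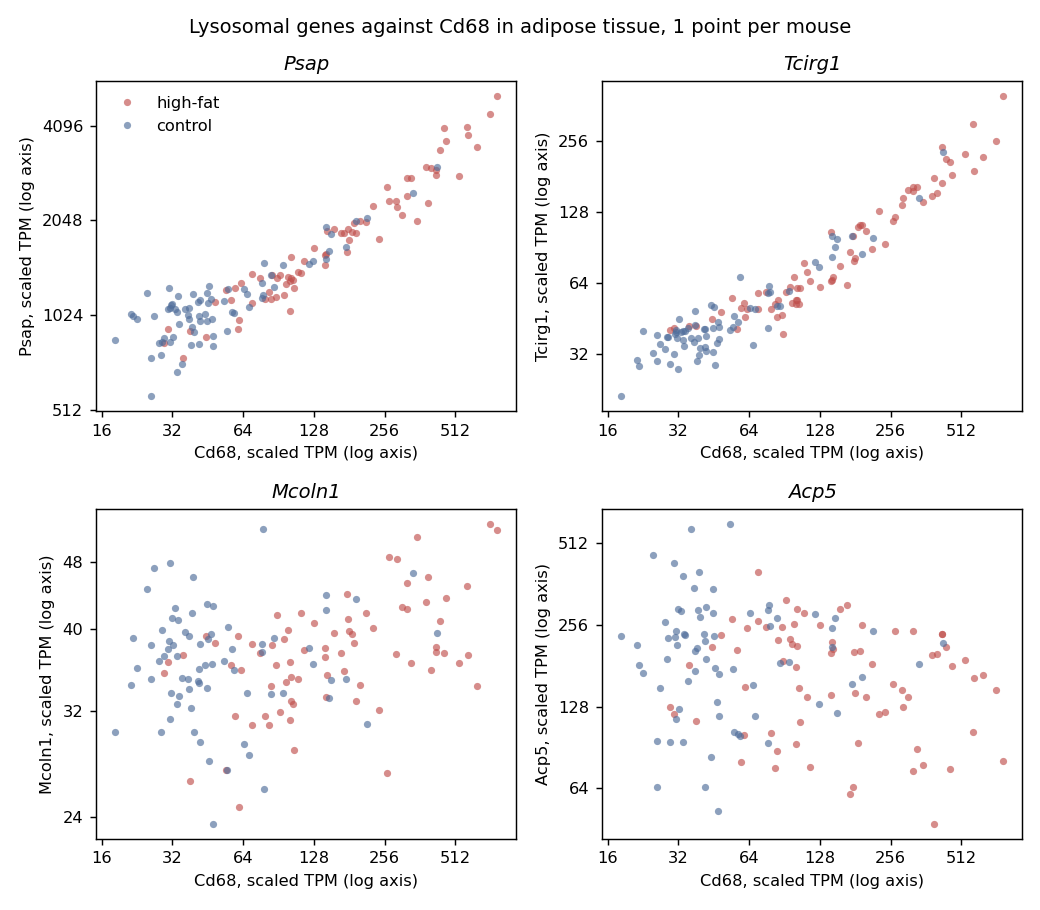
Psap, Tcirg1, Mcoln1 and Acp5 against Cd68 in adipose tissue, in scaled TPM on log axes, with 1 point per mouse for 75 high-fat and 73 control mice. Psap and Tcirg1 rise with Cd68 (r = 0.96 and 0.95 in high-fat mice), while Acp5 does not (r = -0.18).

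In liver fewer of the genes differed, and most of those that did were lower in high-fat mice. Of the 36 genes 35 passed the filter on low values. The exception was Atp6v0d2, the d2 pump subunit, with medians of 0.201 scaled TPM in high-fat and 0.287 in control mice. With limma 6 of the 35 fell, 1 rose and 28 did not pass, where 5.15% of the 12296 genes tested fell and 4.72% rose, or 9.86% in all. The median difference was -0.05 over the 35 genes and 0.00 over all genes tested.

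Of the 9 lipid-handling genes 3 fell. Gm2a had a lowest, median and highest level of 8.11, 15 and 28.6 scaled TPM in high-fat mice, against 12.8, 22.6 and 36.4 in control mice. Gm2a differed by -0.51 ± 0.05 (log2, SE; limma, adjusted p = 1.05e-15), and 3 of 74 high-fat mice lay above the control median. Lipa had a lowest, median and highest level of 33.6, 65.6 and 112.04 scaled TPM in high-fat mice, against 43.5, 81.8 and 132.7 in control mice. Lipa, the acid lipase that splits cholesteryl esters and triglycerides, differed by -0.31 ± 0.05 (limma, adjusted p = 2.94e-06), with 8 of 74 high-fat mice above the control median. Galc had a lowest, median and highest level of 0, 1.11 and 3.81 scaled TPM in high-fat mice, against 0.337, 1.66 and 3.95 in control mice. Galc, galactosylceramidase, was listed at 0 in 2 high-fat libraries and differed by -0.38 ± 0.07 (limma, adjusted p = 2.94e-06). Asah1 (acid ceramidase) had medians of 10.2 scaled TPM in high-fat and 11.9 in control mice (-0.20 ± 0.08, limma adjusted p = 0.0735), and it passed without the low-scale libraries (-0.18, adjusted p = 0.0229). Psap had medians of 138.96 scaled TPM in high-fat and 131.3 in control mice (0.09 ± 0.04, adjusted p = 0.126), and it was higher past the threshold without those libraries (0.12, adjusted p = 0.00254). Hexa, Smpd1, Ppt1 and Pld3 had differences between -0.05 and 0.11.

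Of the 9 proteases and partners 3 fell. Ctsa had medians of 41.3 scaled TPM in high-fat and 47.1 in control mice (-0.20 ± 0.05, limma adjusted p = 0.00148). Ctsb, a cysteine cathepsin, had medians of 72 scaled TPM in high-fat and 82.4 in control mice (-0.19 ± 0.05, limma adjusted p = 0.00234). Ctsd had medians of 99.9 scaled TPM in high-fat and 106.99 in control mice (-0.11 ± 0.03, limma adjusted p = 0.0202), and it missed the threshold with mouse 80 kept (adjusted p = 0.084). In each of these the groups overlapped, with 19, 19 and 21 of 74 high-fat mice above the control median. Ctsz and Scpep1 passed without the low-scale libraries (-0.13 and -0.18, adjusted p = 0.0283 and 0.0492). Acp2 had a lowest, median and highest level of 9.66, 17.7 and 31.1 scaled TPM in high-fat mice, against 9.23, 15.1 and 22.1 in control mice. Acp2 rose (0.19 ± 0.04, limma adjusted p = 0.000909), with 54 of 74 high-fat mice above the control median. None of the 7 glycan-degrading genes, the 6 tested membrane and pump genes or Tfeb passed limma's test, and their differences lay between -0.15 and 0.09. Tpp1, Lgmn, Cstb, Grn and Dnase2a, which did not pass either, had differences of 0.03, -0.11, -0.12, 0.02 and -0.16. Acp5 had liver medians of 41.2 scaled TPM in high-fat and 40.8 in control mice (0.00 ± 0.05). Among the 35 genes 10 had an unadjusted p under 0.05. Without scaling Galc alone of the 35 passed limma's test, and Gm2a differed by -0.56 (adjusted p = 0.335).

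**Figure D4:**
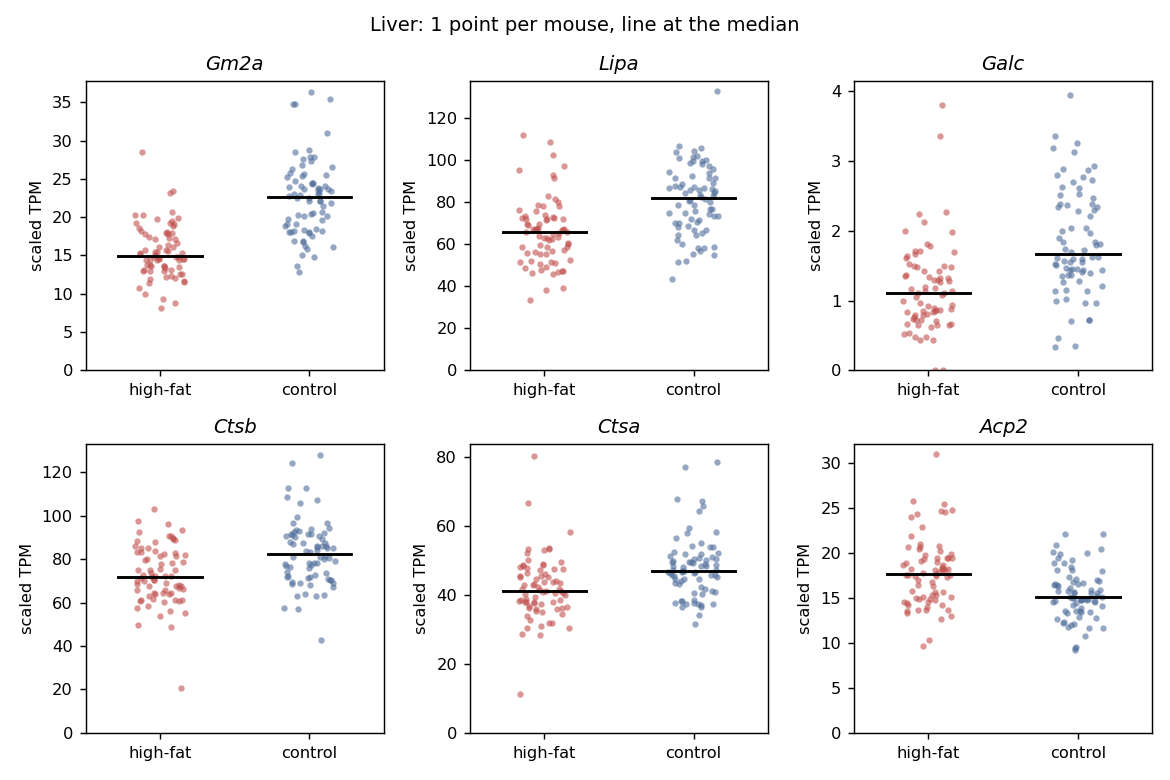
Scaled TPM of 6 genes in the liver of 74 high-fat and 74 control mice, with 1 point per mouse and a line at the median. Gm2a (medians 15 and 22.6), Lipa, Galc, Ctsb and Ctsa are lower in high-fat mice, and Acp2 is higher.

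Lists of other lysosomal genes, which hold none of the 36 except Tfeb among the autophagy genes, changed in both directions in liver. Of 32 further hydrolases and cofactors tested 3 rose and 5 fell, where 4.72% of all genes rose and 5.15% fell. Npc2, the lumenal cholesterol carrier, had medians of 9.5 scaled TPM in high-fat and 13.2 in control mice (-0.41 ± 0.05, limma adjusted p = 6.06e-13), and Ctsl, cathepsin L, 212 scaled TPM in high-fat and 283 in control mice (-0.44 ± 0.06, adjusted p = 7.37e-10). Hyal1, a hyaluronidase, had medians of 14.9 scaled TPM in high-fat and 12.1 in control mice (0.24 ± 0.05), and Abhd6 differed by 0.29 ± 0.08. Of 24 other membrane proteins 2 rose (Scarb2, the receptor that carries glucocerebrosidase, 0.16, and the channel Tpcn1, 0.25) and Cd164 fell (-0.11). Of 16 other pump subunits Atp6v1h (0.19) and Atp6v0c (0.33) rose and Atp6v1g1 (-0.27) fell. Of 17 sorting genes 1 rose, the mannose 6-phosphate receptor Igf2r (0.17). Of 14 genes of the TFEB family and mTORC1 signalling 2 rose, Mtor (0.25) and Fnip1 (0.14), and of 23 autophagy genes 3 rose, Ulk2, Zkscan3 and Atg7. The shares of these lists are not set apart from those of all genes by any test. In adipose tissue, where 23.1% of all genes rose and 22% fell, 3 of 7 tested hydrolases of these lists rose (Naglu, Galns and Smpdl3a), as did 4 of 7 pump subunits (Atp6v0a1 by 0.50), 3 of 6 sorting genes, and the membrane proteins Mcoln2 (0.67 ± 0.12) and Ctns, while Cd164 fell.

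Cd68 and Clec4f did not pass between diets in liver (-0.05, limma adjusted p = 0.818, and -0.01, adjusted p = 0.964). Of 17 macrophage markers tested 2 fell (Timd4 and Mpeg1), and the summed level of the list ran from 104.8 to 401 scaled TPM in high-fat mice (median 212) and from 96.6 to 685 in control mice (median 239). Of 10 hepatocyte markers 5 fell and 1 rose, where 5.15% of all genes tested fell and 4.72% rose. The part of either in the liver differences was not tested.

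In muscle 0 of the 35 genes tested rose and 0 fell with limma at an adjusted p under 0.05, and 7 had an unadjusted p under 0.05. Of the 13462 genes tested 0.877% rose and 0.55% fell, or 1.43% in all. The median difference was 0.04 over the 35 genes and -0.01 over all genes tested. The extremes were Cstb, with medians of 17.8 scaled TPM in high-fat and 16.8 in control mice (0.21 ± 0.09, limma adjusted p = 0.277), and Ids, iduronate sulfatase, with medians of 5.88 scaled TPM in high-fat and 6.79 in control mice (-0.15 ± 0.05, adjusted p = 0.166). Without the low-scale libraries Psap passed (0.15, adjusted p = 0.0219). The lists of other lysosomal genes held 0 called genes in muscle. The summed level of the macrophage markers there ran from 63 to 811 scaled TPM in high-fat mice (median 178) and from 30 to 536 in control mice (median 160.03), and 0 of 15 tested passed.

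The difference of the diet effect between tissues was tested itself, over genes tested in both. In adipose tissue minus liver 12 of the 17 genes had a higher effect and 0 a lower one, where 14.4% of 1779 genes were higher and 11.9% lower, or 26.3% in all. Cstb led them (1.05 ± 0.14, limma adjusted p = 1.13e-10), and Gm2a, which fell in liver and did not pass in adipose tissue, was among them (0.59 ± 0.07). In adipose tissue minus muscle 12 of 17 were higher, among them Tcirg1 (0.89 ± 0.14, limma adjusted p = 2.34e-07) and Acp2 (0.24 ± 0.05), where 12.5% of 1927 genes were higher and 11% lower, or 23.5% in all. Without the low-scale libraries Ctsd missed the threshold there (adjusted p = 0.0976). In liver minus muscle 5 of 35 were lower, namely Lipa (-0.49 ± 0.11), Gm2a (-0.44 ± 0.08), Galc (-0.37 ± 0.08), Asah1 (-0.31 ± 0.09) and Ctsa (-0.21 ± 0.06), and Acp2 was higher (0.25 ± 0.06; limma, adjusted p between 7.18e-05 and 0.0473). Of 10899 genes 1.79% were lower and 1.39% higher, or 3.17% in all. Without scaling 0 members passed in liver minus muscle. With the mouse as block Ctsa missed the threshold (adjusted p = 0.0612) and Ctsb passed (-0.21, adjusted p = 0.045).

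Levels of many of the genes differed several-fold between liver and muscle, which is a description, since each table was scaled on its own. By the median over mice 19 genes were higher in liver and 17 in muscle. Lipa was at 71.9 scaled TPM in liver and 5.53 in muscle, and Ctsz at 100.9 and 23.5. These and Lamp2 (209 and 48.4) were higher in liver in every mouse. Cd63, a tetraspanin of late endosomes, was at 1.28 scaled TPM in liver and 45.7 in muscle, and Tfeb at 3.09 and 39.5. Psap (134.98 and 376), Ctsd (103.6 and 298), Hexa (12.6 and 33.5) and Gaa (15.5 and 52.6), the acid alpha-glucosidase that degrades glycogen, were, like Cd63 and Tfeb, higher in muscle in every mouse. Ctsb (77.7 and 73.1), Pld3 (5.88 and 6.21) and Ppt1 (12.6 and 13.3) had close medians, with liver above muscle in 78, 65 and 58 mice and muscle above liver in 70, 83 and 90.

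**Figure D5:**
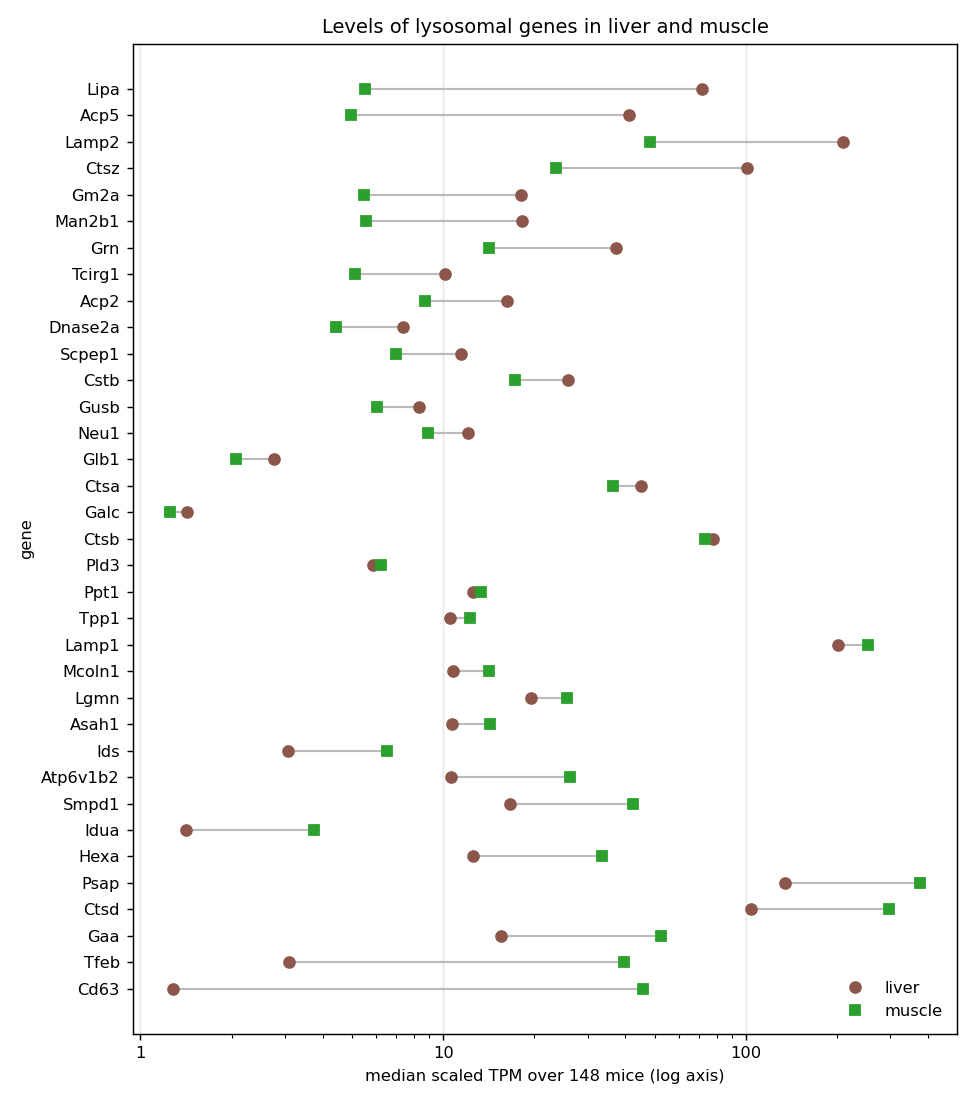
Median scaled TPM over mice in liver and muscle for the 35 genes tested in both, on a log axis. Lipa has the highest ratio of liver to muscle (71.9 and 5.53) and Cd63 the lowest (1.28 and 45.7).

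In muscle 20 of 35 genes correlated positively with Cd68 and 5 negatively in high-fat mice, and 19 and 1 in control mice. The least related member called there had an absolute r of 0.26 in high-fat and 0.27 in control mice. At that r, 18% of all genes tested were positive and 27.7% negative in high-fat mice, and 10.7% and 17.6% in control mice. Lgmn, an asparaginyl endopeptidase, had r = 0.81 in high-fat and 0.54 in control mice (rho = 0.72 and 0.55, r = 0.75 and 0.46 without the 2 farthest mice, permutation adjusted p = 3.87e-05 and 3.87e-05). Man2b1 had r = 0.80 in high-fat and 0.57 in control mice (rho = 0.79 and 0.59, r = 0.78 and 0.51 without the 2 farthest mice, permutation adjusted p = 3.87e-05 and 3.87e-05). Tfeb had r = -0.52 in high-fat and -0.23 in control mice (rho = -0.42 and -0.26, r = -0.43 and -0.17 without the 2 farthest mice, permutation adjusted p = 3.87e-05 and 0.077), so that it passed in high-fat mice. Smpd1, acid sphingomyelinase, had r = -0.43 in high-fat and -0.35 in control mice (rho = -0.44 and -0.38, r = -0.47 and -0.34 without the 2 farthest mice, permutation adjusted p = 0.000404 and 0.00506). On the values as deposited, where a library's scale enters both genes, all 35 were positive in both diets, Tfeb at 0.44 and 0.39 among them. The negative signs were thus seen on scaled values. This comparison cannot tell what they rest on, since the shared scale enters every correlation there. In liver 11 genes were positive in either diet and 2 negative in high-fat and 1 in control mice. The least related member called in liver had an absolute r of 0.27 in high-fat and 0.26 in control mice. At that r, 19.7% of all genes tested were positive and 5.64% negative in high-fat mice, and 17.4% and 6.51% in control mice. Without the low-scale libraries 3 members were positive in high-fat and 4 in control mice. Lgmn was among them, with r = 0.55 in high-fat and 0.42 in control mice (rho = 0.48 and 0.36, r = 0.44 and 0.44 without the 2 farthest mice, permutation adjusted p = 3.87e-05 and 0.000667), and with r = 0.60 and 0.60 without those libraries.

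Liver and muscle of the same mouse were compared over 70 relations (35 genes in both diets). The median r was 0.11 in high-fat and 0.06 in control mice, against 0.06 and 0.05 over all 10899 genes. By Pearson's r 1 relation passed, that of Ppt1, palmitoyl-protein thioesterase, in control mice, which had r = 0.34 in high-fat and 0.41 in control mice (rho = 0.45 and 0.40, r = 0.39 and 0.37 without the 2 farthest mice, permutation adjusted p = 0.0841 and 0.0196). Among all 10899 genes the r of Ppt1 ranked at percentile 94.1 in high-fat and 95.9 in control mice. An r above 0.5 was found for 2.46% of all genes in high-fat and 2.61% in control mice. By Spearman's rho Tpp1 (0.45), Ppt1 (0.45) and Hexa (0.42) passed in high-fat mice (permutation adjusted p = 0.0035, 0.0035 and 0.00723), and Ppt1 in control mice (adjusted p = 0.00788). The share of all genes as closely related was not computed for rho or without the low-scale libraries. Without those libraries 4 genes passed by Pearson's r in each diet. These were Tpp1, tripeptidyl peptidase 1 (r = 0.58 in high-fat and 0.48 in control mice), Hexa (0.42 and 0.46) and Ppt1 (0.45 and 0.37) in both diets, Lipa in high-fat mice (0.41) and Gusb, beta-glucuronidase, in control mice (0.37; permutation adjusted p between 0.0014 and 0.0315). Of 68 such relations between adipose tissue and liver or muscle 0 passed the permutation test at an adjusted p under 0.05, and 2 had an unadjusted p under 0.05.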

How the data were processed

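Stranded total RNA libraries were sequenced on MiSeq, per the labels' protocols. Of the tools used before deposit, Trim Galore 0.4.4, Bowtie 1.2.2 and FastQC appear in the submitters' processing notes. How TPM was computed, on which build and which annotation, is not given in the sources used here. Values deposited by the authors for liver and muscle are TPM, since all their columns have the same total; the adipose columns, which sum to between 5235 and 168547, were taken to hold part of a TPM table; the design had allowed for counts, but no count test was run. Within each tissue, a trimmed mean of log ratios (trims of 0.3 of ratios and 0.05 of levels, no weights) against the gene-wise median gave the scale factors, from nuclear protein-coding genes without Lars2 (symbols from GENCODE M21). Genes with at least 1 scaled TPM in 0.7 of the smaller diet group were tested on log2(scaled TPM + 1) with limma 3.58.1 in R 4.3.3 (trend and robust, two-sided, Benjamini-Hochberg, threshold 0.05). The code was tested on simulated data. Differences are high-fat minus control, or first tissue minus second, and on this scale they understate changes of low genes.

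Equal numbers mark the same mouse, per the labels: over 10899 genes the deviations of its liver and muscle had a median correlation of 0.25, against 0.00 between different mice. For adipose tissue it was lower, 0.08 with liver and 0.14 with muscle. Over all genes tested in both, 109 of 148 livers correlated best with the muscle of their own number. Of 147 adipose libraries, 25 did so with their own liver and 31 with their own muscle. The members, gene lists, markers and tests were chosen with earlier results of these data known. Every member was named if called; of each other list, up to 4 called genes with the smallest p per tissue were named. Relations named across mice and levels between tissues were picked after their values were seen. Alternatives were other scaling, pseudocounts, filter and moderation, the mouse as block, and leaving out low-scale libraries or liver libraries with a second number; leaving out the mice whose liver and muscle did not match was added after seeing the data. The genes most like the members in liver are not reported here.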

Additional observations from a re-analysis of the deposited data

Results flagged for a closer look

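The results listed here are those for which the diet effect of a gene differed between 2 tissues, by limma's test of the difference itself at an adjusted p under 0.05. Each value is a log2 difference of the diet effect, first tissue minus second. In adipose tissue minus liver they were Cstb (1.05), Tcirg1 (1.00), Pld3 (0.94), Dnase2a (0.89), Ctsa (0.81), Ctsz (0.75), Scpep1 (0.66), Gm2a (0.59), Psap (0.55), Man2b1 (0.47), Atp6v1b2 (0.46) and Ctsd (0.40). In adipose tissue minus muscle they were Tcirg1 (0.89), Pld3 (0.76), Cstb (0.72), Dnase2a (0.68), Ctsa (0.60), Ctsz (0.56), Atp6v1b2 (0.54), Psap (0.53), Scpep1 (0.45), Man2b1 (0.39), Ctsd (0.30) and Acp2 (0.24). In liver minus muscle they were Lipa (-0.49), Gm2a (-0.44), Galc (-0.37), Asah1 (-0.31), Acp2 (0.25) and Ctsa (-0.21).

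The effect on Ctsa passed in all 3 pairs without a block, and with the mouse as block it missed the threshold in liver minus muscle (limma, adjusted p = 0.0612), with adipose, liver and muscle diet differences of 0.61, -0.20 and 0.01 in that order.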

How the results depend on the processing

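Beyond the values as deposited, no called result for a single gene reversed under the alternatives run, among 309 results and 2185 values, of which 11 lost and 25 gained the threshold. Of the relations across mice, these hold all those of members with Cd68 in adipose tissue, and otherwise only relations picked after their values were seen. Calls lost by other relations are not in this tally. On the values as deposited, without scaling, the libraries' scale enters every gene. Adipose calls were then 317 (300 higher and 17 lower, against 513 and 489 with scaling), with a median of all genes of 0.21, and members called were 11 higher and 0 lower. Liver calls were 59 (11 higher and 48 lower), with 1 member lower (Galc) and 0 higher, and muscle calls 15. The spread test called 0 adipose genes (0 members), 1 liver gene and 0 muscle genes. Interaction calls were 7 for liver minus muscle (0 members) and 110 for adipose tissue minus liver, and for adipose tissue minus muscle 442 were higher and 2 lower, against 241 and 212 with scaling. Medians of all genes were -0.15 in muscle, 0.12 for liver minus muscle, 0.26 for adipose tissue minus liver and 0.38 for adipose tissue minus muscle. All 35 members correlated positively with Cd68 in liver and muscle of either diet and 0 negatively, and no same-mouse relation passed (0). Reversed there were the correlations with Cd68 of Acp5 in adipose tissue (0.39 high-fat, 0.61 control), of Smpd1 (0.46 and 0.46) and Tfeb (0.44 and 0.39) in muscle, and that of Acp5 with Slc2a4 in muscle (0.42 and 0.20). Without the low-scale libraries the calls were 1921 in liver (members 9 lower and 2 higher), 1 member higher in muscle, 605 for liver minus muscle, 1 member lower for adipose tissue minus liver (Acp5, -0.34), and 22 in the adipose spread test. Correlations with Cd68 in liver were then 3 positive and 0 negative in high-fat and 4 and 0 in control mice, and same-mouse relations 4 in each diet. A pseudocount of 0.1 left 1 gene in the liver spread test and 3 members lower for liver minus muscle, and no filter on low values left about 1.2e+02 genes in muscle, against 192 with it; the cause was not tested. Without the mice whose liver and muscle did not match, 1 member was lower for adipose tissue minus liver (Acp5, -0.31), 2 correlated negatively with Cd68 in control liver and 2 in control muscle, and 1 same-mouse relation passed in high-fat mice (Lipa, 0.42). The replicate block (the mouse) gave 422, 481 and 491 genes for the 3 tissue pairs, against 346, 468 and 453, and beyond Ctsa and Ctsb changed no member's call. Depth is unknown, so counting error could not be separated from differences between mice.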

Other observations

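Acp5 was set against adipocyte markers after its values had been seen. In muscle its coefficient of variation was 110.1% in high-fat and 142.8% in control mice, the largest of the 35 genes tested there, with medians of 5.11 scaled TPM in high-fat and 4.93 in control mice. With Adipoq (adiponectin) it had r = 0.81 in high-fat and 0.92 in control mice (rho = 0.87 and 0.93, r = 0.78 and 0.91 without the 2 farthest mice, permutation adjusted p = 1.4e-05 and 1.4e-05). With Plin1 (perilipin 1) it had r = 0.82 in high-fat and 0.93 in control mice (rho = 0.83 and 0.93, r = 0.86 and 0.93 without the 2 farthest mice, permutation adjusted p = 1.4e-05 and 1.4e-05). Of 10 adipocyte markers 9 were positive in each diet, over 28 relations in adipose tissue and muscle. The share of all genes tested that were as closely related to Acp5 was not computed in either tissue. Slc2a4, which muscle fibres also express, was negative (r = -0.52 in high-fat and -0.66 in control mice), and its sign reversed on the values as deposited.

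In adipose tissue Acp5 was positively related to all 4 adipocyte markers in both diets. With Pparg it had r = 0.62 in high-fat and 0.45 in control mice (rho = 0.58 and 0.42, r = 0.57 and 0.39 without the 2 farthest mice, permutation adjusted p = 1.4e-05 and 3.5e-05), and with Lpl r = 0.62 in high-fat and 0.44 in control mice (rho = 0.57 and 0.42, r = 0.61 and 0.34 without the 2 farthest mice, permutation adjusted p = 1.4e-05 and 0.000112). All 4 markers fell on the high-fat diet, as did Acp5. The part of adipocyte content in the levels of Acp5 was not tested.

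In muscle the genes most like the 35 members across mice, on deviations from the mean of each diet, were Fam91a1 (median r 0.36), Pla2g15 (0.35), Acap2 (0.35), Ctsl (0.35) and Mob1a (0.34). Of these, Pla2g15 (lysosomal phospholipase A2) and Ctsl are lysosomal enzymes.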
